A study of Mus musculus with 6 samples.

Results

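Cdkn1a, Cdkn1b, Cdkn1c, Cdkn2a, Cdkn2b, Cdkn2c, Trp53 and Mdm2 are 6 genes of cyclin-dependent kinase inhibitors, the p53 gene and the gene of the main p53 antagonist. They were taken by name from the count table of the 4 tumour stages, where all 8 were found among 22547 genes, and they were described in luminal and basal epithelial cells and in stroma. In luminal-like cells of the Dormant tissue Cdkn1a stood at 654 UMIs per 1000000, against 65.5 in luminal-like cells of the Primary tumour. Cdkn2a, Cdkn2b, Cdkn1c and Mdm2 were also at least 2-fold higher there, and Cdkn1b was not. In basal-like cells of the same library none of the 8 was at least 2-fold higher than in Primary, and Cdkn2b was lower. Cdkn1a fell just short of 2-fold there, at 244 UMIs per 1000000 in Dormant and 128 in Primary.

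The inhibitors act by binding the kinases that drive a cell from growth into DNA replication. Those of the Cip/Kip family (Cdkn1a, Cdkn1b, Cdkn1c) bind several cyclin and kinase pairs, and those of the Ink4 family (Cdkn2a, Cdkn2b, Cdkn2c) bind CDK4 and CDK6, so that the retinoblastoma protein stays active. Cdkn1a and Mdm2 are textbook transcriptional targets of p53, and the MDM2 protein in turn marks p53 for degradation; the Arf product of Cdkn2a blocks MDM2. Several of these genes are used as markers of quiescence, terminal differentiation or senescence.

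Cells came from mouse mammary tumours transplanted into hosts of strain FVB (FVB.rGH-Luc-GFP). The tumours carried MMTV-Wnt1, in which a mammary promoter drives Wnt1, and an inducible FGF receptor switched on by the B/B homodimerizer that was injected after transplantation. The labels give the genotypes as MMTV-Wnt1/iFGRR1 for Dormant, iFGRR2 for Primary, iFGRR3 for Recurrent and iFGRR4 for Long-term dormant, and whether those numbers stand for different lines is not stated. Primary tumours came from mice of 8 to 10 weeks, Dormant tissue from mice of 10 to 12 weeks, Long-term dormant tissue from mice of 32 to 34 weeks and Recurrent tumours from mice of 20 to 22 weeks. The protocol has mice given the FGFR inhibitor NVP-BGJ398 by gavage for 14 days and then left off drug for 14 days, when residual tissue was collected or mice were kept for recurrence; the Primary label itself states no treatment. Dissociated cells were frozen, thawed and sorted as live by DAPI before 10x Genomics 3' sequencing. There was 1 library for each stage, and how many animals each library pooled is not given in the sources used here. No test between stages was therefore possible. Every interval below is a 95% interval for counting error of summed UMIs only. It leaves out PCR, cell-to-cell and animal variation, so intervals that do not overlap do not test a difference. A gene is called higher or lower only where it was at least 2-fold apart with at least 20 UMIs over both sides.

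After filtering, 4275 cells of Primary, 3276 of Dormant, 5867 of Long-term dormant and 4628 of Recurrent were used, from deposited totals of 14185689 UMIs in Dormant to 41259292 in Recurrent. Cell classes were rebuilt by clustering without the 8 genes and named from marker genes. Primary had 1661 luminal-like cells, Dormant 124, Long-term dormant 108 and Recurrent 2642, with median depths of 5644, 8258.5, 5331.5 and 9514.5 UMIs in that order. Primary had 444 basal-like cells, Dormant 180, Long-term dormant 54 and Recurrent 16, and the last group was too small for any comparison. Fibroblast-like cells numbered 7, 300, 2899 and 104 in the same order, so that fibroblasts of Primary were not compared. Of 19470 distinct barcodes, 194 occurred in more than 1 stage library. No doublet was called in Dormant, where doublets were in effect not removed.

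The Long-term dormant epithelium stood apart from that of the other libraries. The table holds a row for eGFP, which the labels assign to no cell type. An eGFP UMI was found in 99.8% of luminal-like cells of Primary, 78.2% in Dormant and 98.9% in Recurrent, but in 2 of 108 cells (1.85%) in Long-term dormant. In basal-like cells the share was 99.5% in Primary, 90.6% in Dormant and 1 of 54 cells in Long-term dormant. All Long-term dormant values below therefore rest almost wholly on epithelial cells without eGFP, and the luminal-like and basal-like classes are called by those names rather than tumour cells. The clusters that make up the classes also differed. Luminal-like cells were mostly cluster 3 in Primary (1317 of 1661), clusters 3 (60) and 19 (49) in Dormant, clusters 19 (66) and 0 (38) in Long-term dormant and cluster 0 in Recurrent (2194 of 2642), where cluster 19 carried the hormone-sensing markers. Basal-like cells were nearly all cluster 12 in Primary (439) and cluster 18 in Dormant (171) and Long-term dormant (51).

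Cdkn1a encodes p21, the inhibitor through which p53 arrests the cycle. In luminal-like cells it measured 65.5 per 1000000 UMIs of the class (CPM; 60.8 to 70.4) in Primary, 654 CPM (611 to 700) in Dormant, 56.6 CPM (39.6 to 78.3) in Long-term dormant and 98.6 CPM (94.96 to 102) in Recurrent. Dormant stood apart from the other stages with no overlap of intervals, and the Long-term dormant and Primary intervals overlapped. The Dormant value was the highest of all 24 pools of at least 50 cells, above the 482 CPM of Recurrent macrophage- or monocyte-like cells and the 400 CPM of those cells in Dormant itself. In basal-like cells Cdkn1a was at 128 CPM (116 to 141) in Primary, 244 CPM (218 to 271) in Dormant and 88.2 CPM (50.4 to 143) in Long-term dormant. The 16 basal-like cells of Recurrent held 15 UMIs of it, or 190 CPM (106 to 313).

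The Dormant level was spread over the cells and was not set by a few of them. A Cdkn1a UMI was present in 88.7% of Dormant luminal-like cells (110 of 124), against 18.8% in Primary, 24.1% in Long-term dormant and 33.3% in Recurrent. With every cell thinned to 2000 UMIs, the share was 10.5% in Primary (165 of 1578 cells), 61.3% in Dormant (73 of 119), 9.62% in Long-term dormant (10 of 104) and 14.1% in Recurrent (364 of 2584). The median cell of Dormant held 6.20 Cdkn1a UMIs per 10000, with quartiles of 2.57 and 10.98, and the median cell of each other stage held none. The cell with the most Cdkn1a UMIs contributed 3.57% of the Dormant total. As a lower mark, Dormant plasma-like cells had the gene at 28.8 CPM with a UMI in 8.00% of cells, at a median of 2035 UMIs per cell.

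Cdkn1a lies on chromosome 17 (29090976 to 29100727, plus strand, mm10). The upstream of its 2 annotated start windows and the Mdm2 window are shown because they hold a p53 half-site. The other Cdkn1a window held none. These windows were picked for the match, and a link between the match and the levels was not tested. The sequences are RefSeq's, build GRCm38.p6, from 250 bases before to 50 after the start, with matches of the p53 half-site in capitals.
Cdkn1a upstream window, chr17:29090729-29091028, plus strand: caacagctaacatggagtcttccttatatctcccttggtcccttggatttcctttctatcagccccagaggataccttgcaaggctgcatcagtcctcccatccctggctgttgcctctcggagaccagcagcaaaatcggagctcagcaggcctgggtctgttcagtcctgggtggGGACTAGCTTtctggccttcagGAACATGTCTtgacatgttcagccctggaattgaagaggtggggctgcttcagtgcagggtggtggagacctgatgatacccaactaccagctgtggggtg
Mdm2 window, chr10:117710709-117711008, minus strand: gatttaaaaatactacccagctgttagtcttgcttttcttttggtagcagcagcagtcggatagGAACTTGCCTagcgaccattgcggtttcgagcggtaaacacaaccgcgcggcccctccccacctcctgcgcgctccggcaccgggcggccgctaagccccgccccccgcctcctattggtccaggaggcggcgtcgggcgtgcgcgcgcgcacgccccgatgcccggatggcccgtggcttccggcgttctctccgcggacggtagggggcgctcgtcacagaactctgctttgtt
In the Cdkn1a window the matches began 73 and 51 bases before the start, and in the Mdm2 window the match began 186 bases before it. Trp53 had a match as well, 75 bases before its start. Windows were given for 7 of the 8 genes, not for Cdkn1c, and 3 of 10 distinct windows held a p53 half-site on either strand, against 8.36% of 32544 windows of all genes. The match describes letters only and does not show that p53 binds there.

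**Figure D1:**
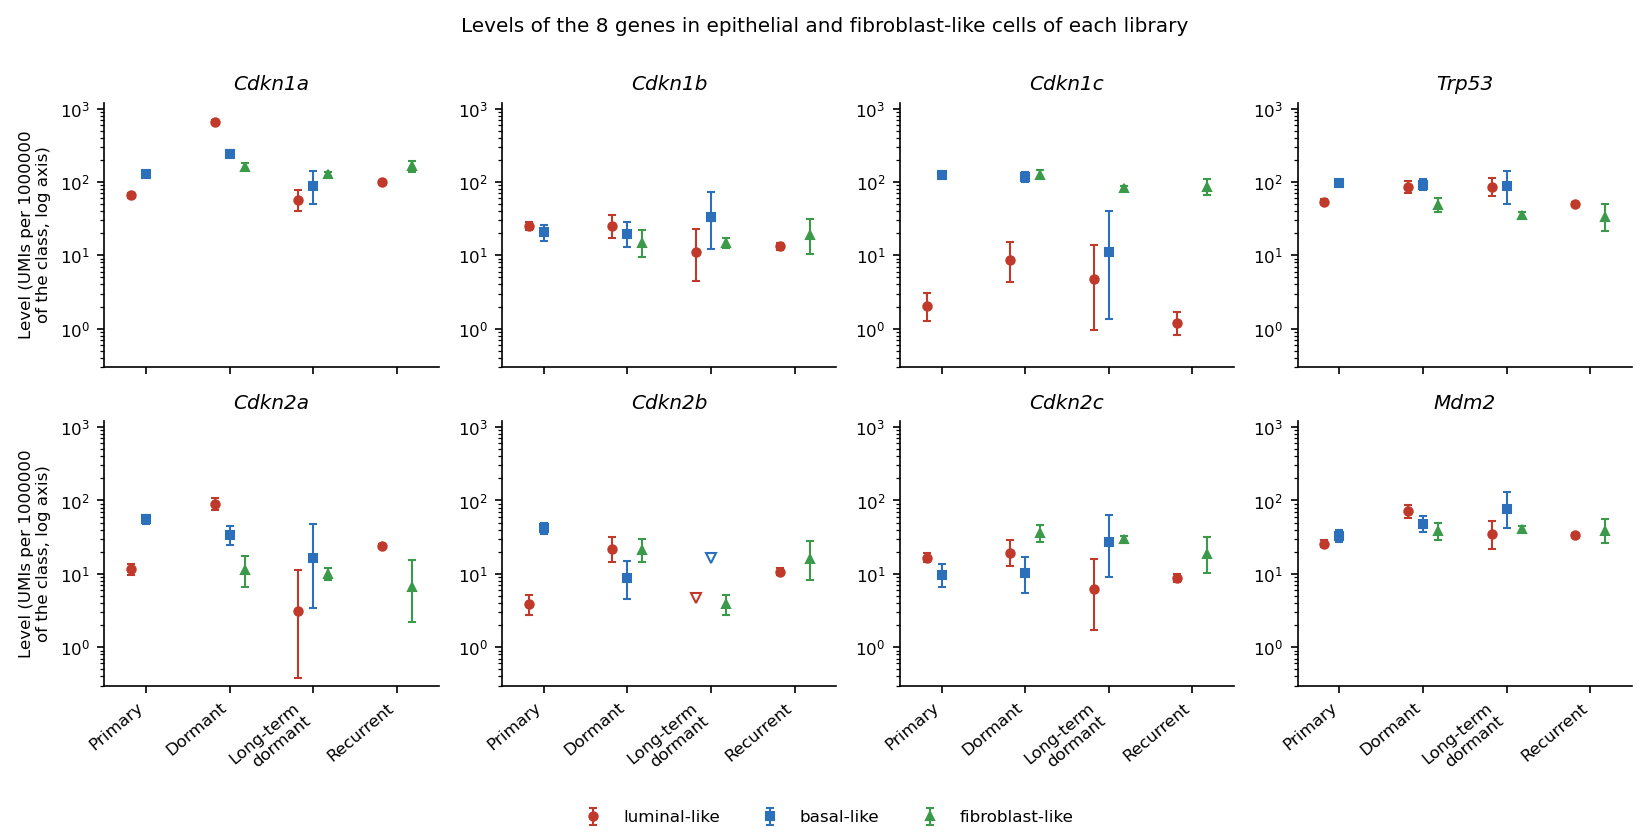
Level of each gene (UMIs per 1000000 of the class, log axis) in luminal-like, basal-like and fibroblast-like cells of each library with at least 50 cells of the class. Points are levels of 1 library each, bars are exact 95% Poisson intervals, and an open triangle marks the floor of 3 UMIs in a pool with no UMI; Cdkn1a reaches 654 CPM in luminal-like cells of Dormant and stays between 56.6 and 98.6 CPM in those of the other stages.

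Cdkn1b encodes p27, an inhibitor that is regulated largely through protein turnover. Its luminal level was 24.98 CPM (22.1 to 28.1) in Primary, 24.9 CPM (17.0 to 35.2) in Dormant, 11 CPM (4.42 to 22.7) in Long-term dormant and 13.3 CPM (12.0 to 14.7) in Recurrent. Primary and Dormant were nearly equal, and Recurrent lay below both. Its basal level was 20.5 CPM in Primary, 19.5 CPM in Dormant and 33.1 CPM in Long-term dormant, the last on 6 UMIs. The highest well-counted levels were in T- or NK-like cells, with 47.7 CPM in Dormant and 49.2 CPM in Long-term dormant; the 96.4 CPM of neutrophil-like cells of Primary rested on 4 UMIs.

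Cdkn1c encodes p57, an imprinted growth inhibitor. It was a gene of basal-like and fibroblast-like cells. Basal-like cells had 123 CPM (111 to 136) in Primary, 116 CPM (98.4 to 135) in Dormant and 11.03 CPM (1.34 to 39.8; 2 UMIs) in Long-term dormant. Fibroblast-like cells had 126 CPM in Dormant, 81.7 CPM in Long-term dormant and 85.9 CPM in Recurrent. Luminal-like cells stayed below 9 CPM in every stage, with 2.01 CPM in Primary, 8.57 CPM in Dormant (11 UMIs in 9 cells), 4.71 CPM in Long-term dormant (3 UMIs) and 1.19 CPM in Recurrent. All immune pools were below 5 CPM. In Dormant basal-like cells 1 cell held 16.9% of the Cdkn1c UMIs.

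Cdkn2a encodes the Ink4 inhibitor p16Ink4a and, from another first exon and reading frame, p19Arf. Both transcripts end in the same exons, so the 3' counts per gene cannot tell them apart. Its luminal level was 11.6 CPM (9.65 to 13.8) in Primary, 88.8 CPM (73.2 to 107) in Dormant, 3.14 CPM (0.381 to 11.4; 2 UMIs) in Long-term dormant and 24.0 CPM (22.2 to 25.8) in Recurrent. The Dormant value was again the highest of the 24 pools, and Recurrent lay above Primary with no overlap of intervals. In basal-like cells the order differed, with 55.5 CPM (47.7 to 64.3) in Primary, 34.0 CPM (24.96 to 45.2) in Dormant and 16.5 CPM in Long-term dormant. That last value came from 3 UMIs of 1 cell, the only Long-term dormant basal-like cell with an eGFP UMI, and the other 53 cells held none.

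At 2000 UMIs per cell, Cdkn2a was found in 2.03% of luminal-like cells of Primary, 21.0% in Dormant (25 of 119), none of 104 in Long-term dormant, where the floor of 3 cells stands at a share of 2.88% of cells with a UMI, and 4.41% in Recurrent. Macrophage- or monocyte-like cells served as the mark for free RNA, with a Cdkn2a UMI at that depth in 1 of 1225 cells of Primary (0.0816%), none of 167 in Dormant and 1 of 1216 in Recurrent (0.0822%). Among the thinned Dormant luminal-like cells, Cdkn1a was found in 64.0% of the 25 cells with Cdkn2a and in 60.6% of the 94 without it. In Recurrent the same shares were 25.4% of 114 and 13.6% of 2470 cells.

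Cdkn2a lies on chromosome 4 (89274471 to 89294653, minus strand). Its start windows are shown because the counts sum over both; GGGCGG, the core of a GC box searched on both strands, is in capitals, and the outer window belongs to the p19Arf transcript.
Cdkn2a outer window, chr4:89294570-89294869, minus strand: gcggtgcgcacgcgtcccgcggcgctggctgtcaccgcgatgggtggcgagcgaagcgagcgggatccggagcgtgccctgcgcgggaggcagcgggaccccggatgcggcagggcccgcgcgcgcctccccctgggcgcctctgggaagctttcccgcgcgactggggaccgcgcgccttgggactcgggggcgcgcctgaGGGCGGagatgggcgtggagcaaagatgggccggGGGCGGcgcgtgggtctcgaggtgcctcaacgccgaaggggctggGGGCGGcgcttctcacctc
Cdkn2a inner window, chr4:89282143-89282442, minus strand: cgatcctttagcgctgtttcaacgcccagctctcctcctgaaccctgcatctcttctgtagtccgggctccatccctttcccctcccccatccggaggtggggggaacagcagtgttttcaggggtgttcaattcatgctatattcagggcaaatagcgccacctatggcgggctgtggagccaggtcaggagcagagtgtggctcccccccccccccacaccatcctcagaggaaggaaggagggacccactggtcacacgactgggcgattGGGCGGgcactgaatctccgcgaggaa
The outer window held 3 matches and the inner window 1. Of the 10 windows of the genes described here 7 held GGGCGG, against 35.9% of all windows of that length.

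Cdkn2b, which neighbours Cdkn2a (chromosome 4, 89306299 to 89311039), encodes p15, an inhibitor induced by TGF-beta in epithelial cells. In luminal-like cells it stood at 3.83 CPM (2.76 to 5.18) in Primary, 21.8 CPM (14.5 to 31.5) in Dormant and 10.7 CPM (9.54 to 12.0) in Recurrent, and no UMI was found in Long-term dormant, where the floor of 3 UMIs stands at 4.71 CPM. In basal-like cells it was highest in Primary with 41.5 CPM (34.8 to 49.2), followed by 8.67 CPM (4.48 to 15.2) in Dormant and 0 UMIs in Long-term dormant. Luminal and basal levels thus had opposite orders in Primary and Dormant. Fibroblast-like cells had 21.1 CPM in Dormant, 3.82 CPM in Long-term dormant and 16.1 CPM in Recurrent, where 1 cell held 50% of the 12 UMIs.

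Cdkn2c encodes p18, an Ink4 inhibitor whose mRNA is known to be made in dividing cells. Its 3 highest pools were all T- or NK-like. That class had 72.2 CPM in Primary, 20.6 CPM in Dormant, 42.3 CPM in Long-term dormant and 49.1 CPM in Recurrent. In luminal-like cells it measured 16.6 CPM (14.3 to 19.2) in Primary, 19.5 CPM (12.6 to 28.7) in Dormant, 6.29 CPM (1.71 to 16.1) in Long-term dormant and 8.67 CPM (7.62 to 9.82) in Recurrent. Basal levels were 9.61 CPM in Primary and 10.1 CPM in Dormant, and 27.6 CPM in Long-term dormant on 5 UMIs.

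Trp53 encodes p53, whose activity is set mainly at the protein level. Its luminal mRNA level differed by less than 2-fold between any 2 stages. Luminal-like cells had 54.1 CPM (49.8 to 58.6) in Primary, 84.9 CPM (69.7 to 102) in Dormant, 86.4 CPM (65.1 to 113) in Long-term dormant and 50.3 CPM (47.75 to 52.997) in Recurrent. Basal-like cells had 95.8 CPM in Primary, 91.8 CPM in Dormant and 88.2 CPM in Long-term dormant, with overlapping intervals.

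Mdm2 encodes the ubiquitin ligase that degrades p53. In luminal-like cells it was at 25.9 CPM (23.0 to 29.1) in Primary, 70.9 CPM (57.1 to 87.0) in Dormant, 34.6 CPM (21.7 to 52.3) in Long-term dormant and 33.7 CPM (31.6 to 35.9) in Recurrent. In basal-like cells it was at 32.9 CPM in Primary, 47.7 CPM in Dormant and 77.2 CPM (42.2 to 129; 14 UMIs) in Long-term dormant. Macrophage- or monocyte-like cells held its 3 highest levels, 105 CPM in Dormant, 140 CPM in Long-term dormant and 118 CPM in Recurrent, against 38.4 CPM in Primary.

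The comparison of Dormant with Primary asks what residual tissue after FGFR inhibition keeps or gains over the untreated tumour. In luminal-like cells 5 of the 8 genes were at least 2-fold higher in Dormant and none was at least 2-fold lower; of 10805 genes measured, 10.5% were higher and 9.8% lower. Cdkn1a was 9.99-fold higher (log2 ratio 3.32, 3.18 to 3.47). Cdkn2a followed with a log2 ratio of 2.94 (2.56 to 3.32), Cdkn2b with 2.52 (1.77 to 3.23), Cdkn1c with 2.13 (0.90 to 3.20) and Mdm2 with 1.46 (1.10 to 1.80). Trp53 at 0.66, Cdkn2c at 0.26 and Cdkn1b at 0.02 stayed within 2-fold. The median over the 8 genes was 1.79, and over all measured genes it was -0.01.

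In basal-like cells of the same libraries, no member was at least 2-fold higher and 1 was lower, where 10.9% of 9560 genes were higher and 15.4% lower. Cdkn2b was the lower one (log2 ratio -2.21, -3.25 to -1.41). Cdkn1a came to 0.93 (0.72 to 1.14) and Mdm2 to 0.54 (0.07 to 0.99), both ratios below the 2-fold rule with intervals above 0. The Cdkn1a interval reached past 2-fold, and with another scaling (TMM factors, given below) Cdkn1a passed the rule. Cluster 12 held 439 of 444 basal-like cells in Primary and 9 of 180 in Dormant. Cdkn2a was at -0.70 (-1.20 to -0.24). Cdkn1b, Cdkn1c, Cdkn2c and Trp53 lay between -0.09 and 0.10. The median of the 8 genes was -0.06, and that of all genes -0.21.

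**Figure D2:**
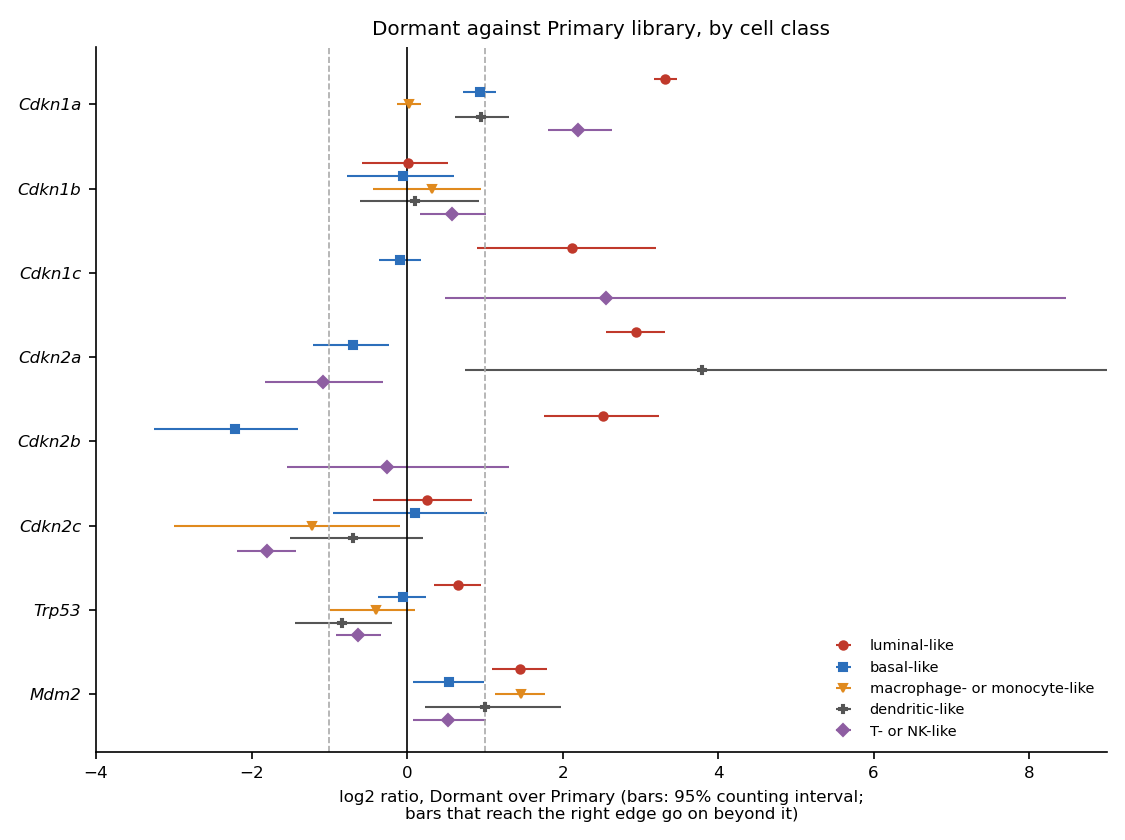
Log2 ratio of Dormant over Primary for each gene in each class with at least 50 cells in both libraries, with 95% counting intervals; dashed lines mark 2-fold. Points are ratios between 1 library each. The luminal-like points of Cdkn1a (3.32), Cdkn2a (2.94) and Cdkn2b (2.52) are the highest of that class, and the basal-like point of Cdkn2b lies at -2.21.

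In stroma, T- or NK-like cells had 2 members higher and 2 lower, where 10.2% of 9141 genes were higher and 8.42% lower. Cdkn1a was at 138 CPM in Dormant and 29.7 CPM in Primary (log2 ratio 2.20, 1.82 to 2.63), and Cdkn1c had 24 UMIs in Dormant and 1 in Primary (2.55, 0.49 to 8.47). Cdkn2c was at 20.6 CPM in Dormant and 72.2 CPM in Primary (-1.81, -2.19 to -1.43), and Cdkn2a was lower as well (-1.08). The clusters of the class differed between the libraries, with 4 of 1848 cells in cluster 15 in Dormant and 191 of 718 in Primary. Within clusters that both shared, Cdkn1a measured 225 CPM in Dormant and 51.8 CPM in Primary in cluster 10, 173 CPM in Dormant and 44.0 CPM in Primary in cluster 7, and 113 CPM in Dormant and 53.9 CPM in Primary in cluster 14, whereas in cluster 4 it measured 60.7 CPM in Dormant and 35.4 CPM in Primary, short of 2-fold. Cdkn2c was at least 2-fold lower in clusters 4 (-1.71), 10 (-1.27) and 14 (-1.78) and not in cluster 7 (-0.60). Cdkn2a was lower in cluster 14 (-1.31) but level in cluster 10 (0.06). In NK-like cluster 7, 3 of 5 measured members were higher and none lower, where 16% of 5719 genes were higher and 9.74% lower; beside Cdkn1a these were Cdkn1b (86 UMIs in Dormant, 2 in Primary; 1.90, 0.32 to 5.29) and Mdm2 (63 UMIs in Dormant, 0 in Primary).
Macrophage- or monocyte-like cells had Mdm2 higher (105 CPM in Dormant, 38.4 CPM in Primary; log2 ratio 1.46, 1.12 to 1.77) and Cdkn2c lower (-1.22, on 5 UMIs in Dormant), where 11.9% of 9502 genes were higher and 9.86% lower. Their Cdkn1a was alike in the pooled class, with 400 CPM in Dormant and 392.1 CPM in Primary. The class was made of different clusters, with 6 of 205 cells in cluster 2 in Dormant and 817 of 1246 in Primary. Within macrophage cluster 11, with 52 cells of Dormant and 387 of Primary, Cdkn1a differed, with 418 CPM in Dormant and 184 CPM in Primary. Mdm2 was higher in that cluster too, at 126 CPM in Dormant and 24.4 CPM in Primary (2.38, 1.79 to 2.92).
In dendritic-like cells Mdm2 was higher (1.01, 0.23 to 1.98) and Cdkn2a had 21 UMIs in Dormant and 0 in Primary, at least 2.25-fold higher against the floor of 3 UMIs, with a counting interval that starts at a log2 ratio of 0.75, short of 2-fold; the background was 12% higher and 7.47% lower among 7340 genes. Cdkn1a in those cells was at 240 CPM in Dormant and 124 CPM in Primary (0.95). The clusters of this class differed too, with 133 of 270 cells in cluster 16 in Dormant and 22 of 94 in Primary. What that added to these ratios was not tested.

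Other genes downstream of p53 were counted in the same luminal-like pool. From a list of 22 p53 target genes that holds no member, 12 of 21 measured were at least 2-fold higher in Dormant than in Primary. None was lower, and the median log2 ratio of the list was 1.31. Over all 10805 genes measured, 10.5% were higher and 9.8% lower. Pmaip1, which encodes the apoptosis inducer NOXA, had 46.7 CPM in Dormant and 3.46 CPM in Primary (log2 ratio 3.75, 3.14 to 4.38). Eda2r, a death-domain receptor of the tumour necrosis factor family, had 14.8 CPM in Dormant and 1.28 CPM in Primary (3.52). Phlda3, an inhibitor of Akt signalling, had 220 CPM in Dormant and 29.4 CPM in Primary (2.90, 2.66 to 3.13). In basal-like cells the list was mixed, with 4 higher and 5 lower of 19 and a median of -0.65. Of all 9560 genes measured there, 10.9% were higher and 15.4% lower. Pmaip1 was higher there too (3.48), as was the stress-induced Sesn2 (1.63), whereas Bbc3, the gene of the apoptosis inducer PUMA, was lower (-1.60). Of 10 p53 regulators 1 was higher and none lower in luminal-like cells, a share near the 10.5% of all genes; this was Sirt1, a deacetylase of p53, with 28.8 CPM in Dormant and 5.20 CPM in Primary (2.48).

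**Figure D3:**
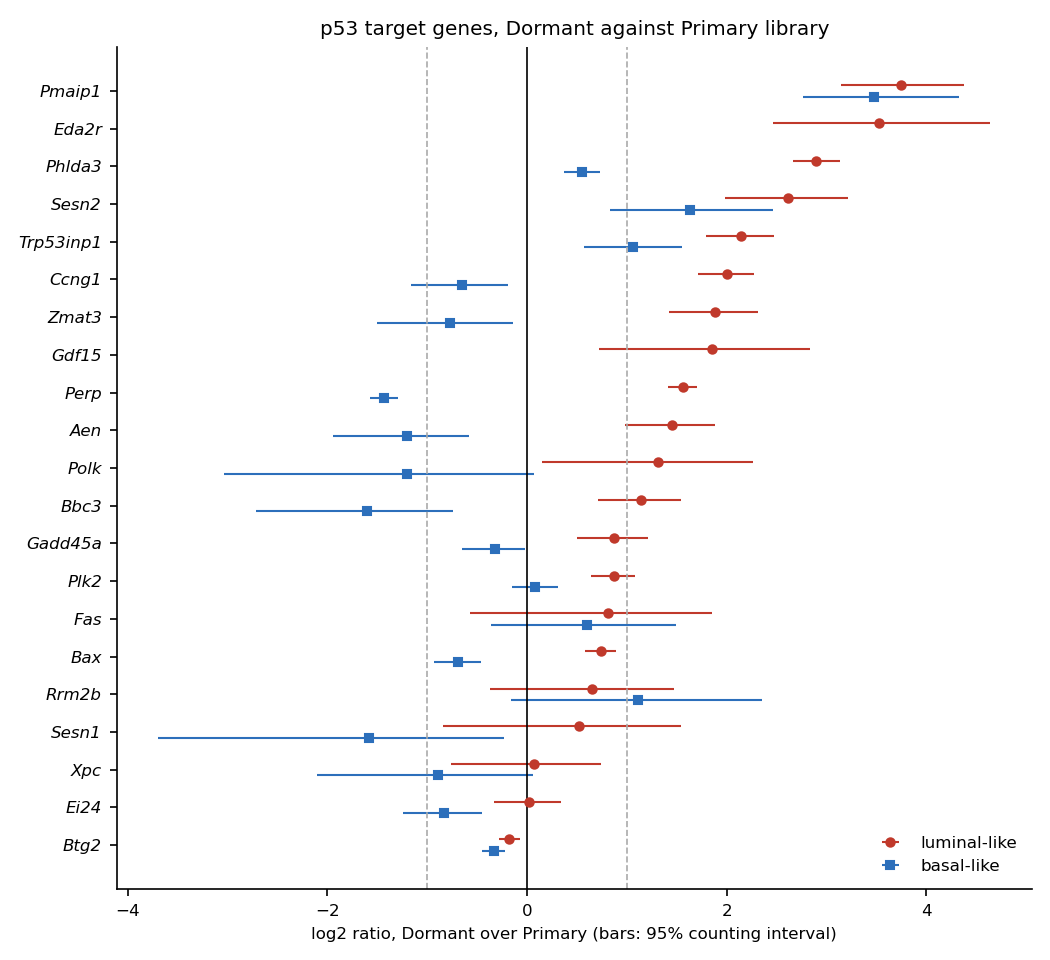
Log2 ratio of Dormant over Primary for the listed p53 target genes in luminal-like and in basal-like cells, with 95% counting intervals; dashed lines mark 2-fold. Pmaip1 is high in both classes, with luminal-like cells at 3.75 and basal-like cells at 3.48, and Phlda3 reaches 2.90 in luminal-like cells.

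Several measures moved with the Dormant library, and their part in these ratios was not tested. Immediate early and heat shock genes, 13 in all, can be induced by tissue dissociation. In Dormant luminal-like cells 6 were higher and none lower, where 10.5% of 10805 genes were higher and 9.8% lower. The summed level of the 13 was 6955 CPM in Primary, 9397 CPM in Dormant, 5115 CPM in Long-term dormant and 7000 CPM in Recurrent luminal-like cells. In basal-like cells 5 of the 13 were higher and 1 lower, where 10.9% of 9560 genes were higher and 15.4% lower. Their sum was 10903 CPM in Dormant and 8912 CPM in Primary basal-like cells. Cdkn1a in those cells was at 244 CPM in Dormant and 128 CPM in Primary. In stroma 6 of the 13 were higher in Dormant in macrophage- or monocyte-like cells, 5 in dendritic-like and 5 in T- or NK-like cells, and none was lower in those classes. Within dendritic-like cluster 9 there were 8 higher, and Mdm2 there had 43.8 CPM in Dormant and 12.1 CPM in Primary (1.73, 0.51 to 3.55). T cell markers, none of 12 at 0, summed to 315 CPM in Dormant and 30.4 CPM in Primary luminal-like cells, and fibroblast markers to 218 CPM, with none of 11 at 0, and 4.01 CPM, with Dpt and Mfap5 at 0. Cdkn1a in Dormant was at 138 CPM in T- or NK-like, 162 CPM in fibroblast-like, 240 CPM in dendritic-like and 400 CPM in macrophage- or monocyte-like cells. How far RNA of other cells added to the 654 CPM of luminal-like cells was not tested.

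The luminal difference was also present inside 1 cluster, a comparison added after the clusters were seen. Median depth in cluster 3 was 10827 UMIs in Dormant and 5186 in Primary. At resolution 2, cluster 37 of the luminal-like cells held 45 cells of Dormant and 17 of Primary, and cluster 1 held 8 and 1073. The kinds of cell inside cluster 3 were thus not shown to be alike in both libraries. In cluster 3, with 60 cells of Dormant and 1317 of Primary, Cdkn1a had 578 CPM in Dormant and 67.2 CPM in Primary (log2 ratio 3.103, 2.92 to 3.29). Cdkn2a in that cluster had 79.7 CPM in Dormant and 8.33 CPM in Primary (3.26), and 6 of the 8 genes were at least 2-fold higher, against 10.7% of 10154 genes. Cdkn2c was called here but not in the whole class (1.22), and 9 of 14 measured G2 and M phase genes were higher in Dormant in this cluster as well. Cluster 13, led by dividing cells, held 200 luminal-like cells of Primary and 4 of Dormant. Over whole luminal-like pools the direction of those genes was the opposite, with none of 20 higher and 9 lower. The 97 Dormant luminal-like cells with an eGFP UMI had Cdkn1a at 697 CPM, Cdkn2a at 103 CPM and Cdkn2b at 25.7 CPM. The 27 without had Cdkn1a at 414 CPM, Cdkn2a at 10.3 CPM on 2 UMIs and no UMI of Cdkn2b. With fewer than 30 cells on one side, no ratio was formed between them.

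**Figure D4:**
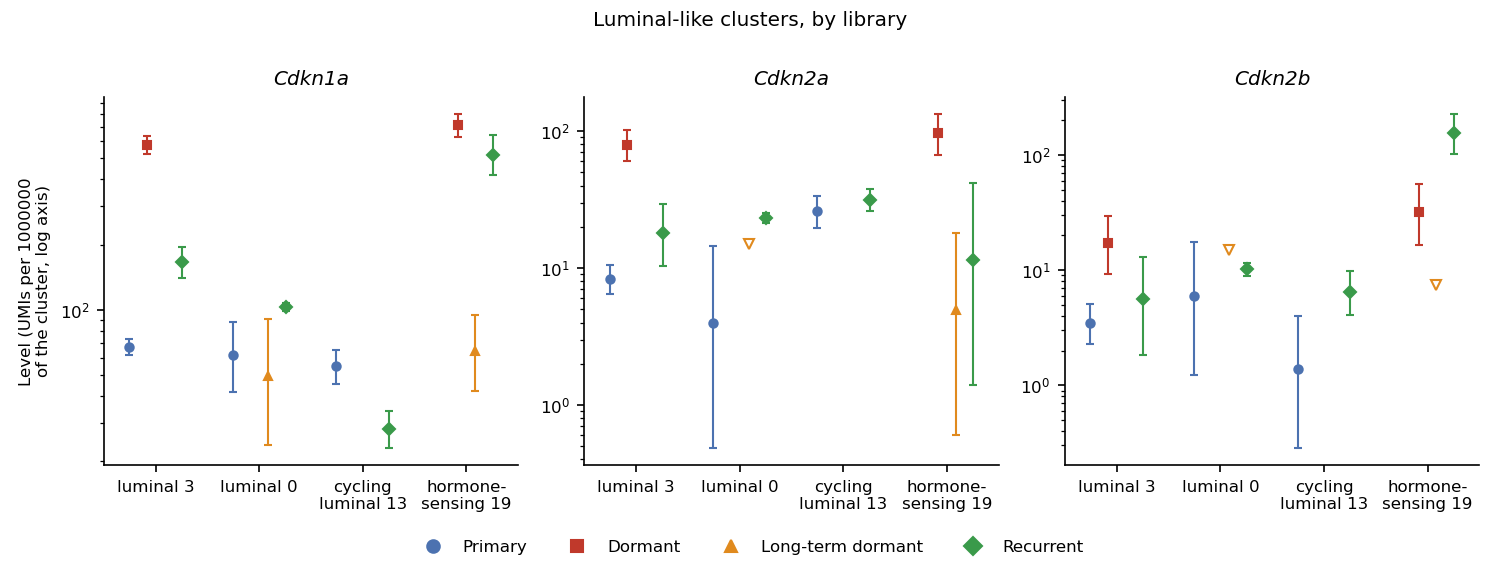
Levels of Cdkn1a, Cdkn2a and Cdkn2b (UMIs per 1000000 of the cluster, log axis) in luminal-like clusters 3, 0, 13 and 19, for libraries with at least 30 cells of the cluster, with exact 95% Poisson intervals; open triangles mark the floor of 3 UMIs where no UMI was found. In clusters 3 and 19 the Dormant cells have Cdkn1a at 578 and 710 CPM, and in cluster 19 Cdkn2b is highest in Recurrent, at 156 CPM.

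Long-term dormant tissue was set against Dormant tissue to ask whether the inhibitors stay high over months; the epithelial cells compared are without eGFP in Long-term dormant and mostly with it in Dormant, so time and cell origin cannot be told apart. Of 7 members measured in luminal-like cells 6 were at least 2-fold lower in Long-term dormant, where 11.8% of 7097 genes were lower and 6.75% higher. Cdkn1a had a log2 ratio of -3.51 (-4.06 to -3.05), Cdkn2a of -4.50 (-7.88 to -2.93) and Mdm2 of -1.01 (-1.78 to -0.35). Cdkn2b, with 0 UMIs in Long-term dormant and 28 in Dormant, was at least 4.62-fold lower against the floor of 3 UMIs, and the counting interval of its log2 ratio lay below -1.82. Cdkn2c at -1.49 and Cdkn1b at -1.10 (-2.60 to 0.03) rested on 4 and 7 UMIs in Long-term dormant. Trp53 was level, at 0.03 (-0.47 to 0.51). Of the p53 target genes 10 of 16 were lower and 1 higher, with Phlda3 at -3.74, Perp, a desmosome-linked cell death gene, at -3.59 and Ccng1, a cyclin gene, at -2.63.

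Inside a cluster that both libraries shared, Cdkn1a and Cdkn2a were again lower and Mdm2 was within 2-fold. In hormone-sensing cluster 19, with 66 cells of Long-term dormant and 49 of Dormant, Cdkn1a was at 64.3 CPM in Long-term dormant and 710 CPM in Dormant (-3.44), and Cdkn2a had 2 UMIs in Long-term dormant and 36 in Dormant (-3.98, -7.38 to -2.32); 12.5% of 4137 genes were lower there. Mdm2 came to -0.53 and Trp53 to 0.04. Among luminal-like cells without an eGFP UMI, Cdkn1a stood at 57.6 CPM in 106 cells of Long-term dormant and at 414 CPM in 27 cells of Dormant. In basal-like cells Cdkn1a (-1.42, -2.29 to -0.74) and Cdkn1c (-3.07, -6.45 to -1.51) were lower, 2 of 6 measured, where 12.7% of 6319 genes were lower and 12.5% higher. Trp53 (-0.02), Mdm2 (0.73) and Cdkn1b (0.85) had intervals that held 0.

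Among stromal cells, fibroblast-like cells had 1 member lower in Long-term dormant, Cdkn2b (-2.47, -3.15 to -1.77), where 9.94% of 11204 genes were lower and 7.5% higher. The clusters inside the class differed between the libraries, with 16 of 2899 cells in cluster 20 in Long-term dormant and 134 of 300 in Dormant. Within cluster 1 the ratio was -0.98 (-2.31 to 1.12), and within cluster 6 there were 7 UMIs in Long-term dormant and 0 in Dormant, too few for a ratio. In cluster 1 the calls were of other genes and the other direction, with 2 of 8 members higher and none lower, where 12.3% of 10393 genes were higher and 10.2% lower. These were Cdkn1b (1.48, -0.10 to 4.86; 111 UMIs in Long-term dormant, 2 in Dormant) and Cdkn2a (81 UMIs in Long-term dormant, 0 in Dormant). Cluster 1 held 1912 cells of Long-term dormant and 72 of Dormant, so the UMI counts are not on the same scale. The Cdkn2a call rests on the 0.5 added to its 0 count, and a 2-fold difference is not settled for either gene. In cluster 6, Cdkn1c was the 1 member lower of 7 (-1.23, -1.59 to -0.84), where 6.07% of 8963 genes were lower and 8.5% higher. Cdkn1a (-0.35), Cdkn1c (-0.63), Trp53 (-0.48) and Mdm2 (0.11) stayed within 2-fold in these cells. Cdkn2c was higher in T- or NK-like cells (1.05, 0.46 to 1.59; background 12.4% higher and 6.86% lower of 8917 genes) and in macrophage- or monocyte-like cells (1.45, 0.25 to 3.26; background 11.1% higher and 6.53% lower of 8152). Of T- or NK-like cells with at least 2000 UMIs, 78 of 117 (66.7%) were scored as cycling in Long-term dormant. In Dormant it was 347 of 1232 (28.2%), by the score given further on. That depth left out 351 of 468 T- or NK-like cells in Long-term dormant and 616 of 1848 in Dormant. At 1000 UMIs per cell the shares were 108 of 336 (32.1%) in Long-term dormant and 190 of 1716 (11.1%) in Dormant. The part of cycling in the Cdkn2c value was not tested. In dendritic-like cells Cdkn2a was lower (-3.91, -7.34 to -2.17), on 2 UMIs in Long-term dormant and 21 in Dormant. There 10.6% of 8943 genes were lower and 6.91% higher. Cluster 16 held 187 of 1004 of those cells in Long-term dormant and 133 of 270 in Dormant.

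Recurrent tumours were set against Dormant tissue to see which of these genes fall back on regrowth. In luminal-like cells 6 of 8 members were at least 2-fold lower in Recurrent, against 14.9% of 11584 genes, and none was higher, against 9.81%. Cdkn1a had a log2 ratio of -2.73 (-2.84 to -2.62), Cdkn1c of -2.89 (-3.86 to -1.71) and Cdkn2a of -1.89 (-2.18 to -1.59). Cdkn2c came to -1.19, Mdm2 to -1.08 and Cdkn2b to -1.05, the last 2 close to the 2-fold rule. Cdkn1b at -0.93 and Trp53 at -0.76 did not pass it. Among p53 target genes 16 of 21 were lower, with Pmaip1 at -4.62, Phlda3 at -3.14 and Trp53inp1, a p53-induced autophagy and death gene, at -2.72.

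The clusters did not all follow that pattern. In cluster 3, Cdkn1a was at 167 CPM in Recurrent (170 cells) and 578 CPM in Dormant (-1.79), and 4 of 6 measured members were lower, against 9.4% of 6418 genes. In cluster 19, which held 36 cells of Recurrent, Cdkn1a was at 519 CPM in Recurrent and 710 CPM in Dormant (-0.45), within 2-fold. Cdkn2b in that cluster was higher, at 156 CPM in Recurrent (27 UMIs) and 32.0 CPM in Dormant (12 UMIs; log2 ratio 2.25), and Cdkn2a was lower (-2.76, -6.16 to -1.10; 2 UMIs in Recurrent); 17% of 3421 genes were higher and 9.47% lower. With each luminal-like cluster given equal weight, 3 members rather than 6 were at least 2-fold apart, and Cdkn2b changed sign to 0.66. In fibroblast-like cells none of the 8 members was at least 2-fold apart, where 5.64% of 7805 genes were higher and 10.8% lower; Cdkn1a stood at 162 CPM in both libraries. T- or NK-like cells had Cdkn2c (1.25) and Cdkn2a (1.07) higher and Cdkn1c lower (-1.07, -3.64 to 0.46, on 3 UMIs in Recurrent). The background was 8.67% of 9080 genes higher and 9.06% lower. Cluster 15 held 179 of 469 such cells in Recurrent and 4 of 1848 in Dormant. In cluster 7 none of 5 measured members was higher and 2 were lower (9.15% of 5772 genes higher, 13.8% lower). In cluster 4, 1 of 5 was higher and none lower (11.4% of 6061 genes higher, 11.7% lower). In cluster 10, 1 of 6 was higher and 1 lower (10.9% of 5743 genes higher, 11.3% lower). In cluster 14, 2 of 6 were higher and none lower (6.6% of 3317 genes higher, 10.5% lower). Dendritic-like cells had Trp53 higher (1.19, 0.50 to 1.83; background 7.38% higher and 9.32% lower of 7101 genes). In the pooled macrophage- or monocyte-like cells no member passed the rule, where 9.92% of 9376 genes were higher and 10.6% lower. Cdkn2c was at 0.97 and Cdkn1a at 0.27. Cluster 2 held 976 of 1245 cells of that class in Recurrent and 6 of 205 in Dormant. Within cluster 11, 2 of 5 measured members were higher and none lower (16.5% of 5433 genes higher, 7.05% lower). Within cluster 8 neither of 2 measured was apart (10.9% of 3086 genes higher, 8.65% lower).

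Recurrent and Primary tumours are both growing. In luminal-like cells Cdkn2b (log2 ratio 1.47, 1.01 to 1.98) and Cdkn2a (1.05, 0.77 to 1.33) were at least 2-fold higher in Recurrent and no member was lower, against 5.77% of 11868 genes higher and 8.11% lower. Cdkn1a was at 0.59 (0.47 to 0.71), with 98.6 CPM in Recurrent and 65.5 CPM in Primary. Cdkn2c (-0.94) and Cdkn1b (-0.91) were near the rule on the lower side, and Trp53 (-0.10) was level. With the stricter cell filter 1 member passed in place of 2. Within cluster 3, Cdkn1a was at 167 CPM in Recurrent and 67.2 CPM in Primary (1.31), and Cdkn2a was higher as well (1.15), while Cdkn2c was lower on 2 UMIs in Recurrent (-1.98, -5.36 to -0.39), with 6.98% of 10072 genes higher and 10% lower. In cluster 0, which held 2194 luminal-like cells of Recurrent and 77 of Primary, Cdkn2a (538 UMIs in Recurrent, 2 in Primary; 2.22, 0.68 to 5.59) and Cdkn2c (112 UMIs in Recurrent, 0 in Primary) were higher and Cdkn1c lower (26 UMIs in Recurrent, 1 in Primary; -1.39, -3.43 to 4.53), where 8.02% of 11053 genes were higher and 10.3% lower. For Cdkn2c the call in cluster 0 rests on the 0.5 added to its 0 UMIs in only 77 Primary cells. Its direction in that cluster is therefore not settled, and in cluster 3 its call rests on 2 UMIs in Recurrent. Over the whole luminal-like pools, none of 22 p53 target genes was higher and 2 were lower, a share near the 8.11% of all genes. The lower ones were Btg2 (-1.39) and Sesn1 (-1.05), both of them p53-induced stress genes. Within cluster 3, 4 of 20 measured p53 target genes were higher and 2 lower. Within cluster 0, 3 of 21 were higher and 3 lower.
In stroma, Mdm2 was higher in macrophage- or monocyte-like cells (118 CPM in Recurrent, 38.4 CPM in Primary; 1.61, 1.44 to 1.79), where 3.96% of 10164 genes were higher and 2.27% lower. Inside macrophage cluster 2, with 976 cells of Recurrent and 817 of Primary, the ratio was 1.47. Cdkn1a was higher in dendritic-like cells (350 CPM in Recurrent, 124 CPM in Primary; 1.495), where 6.53% of 4626 genes were higher and 4.17% lower. It was higher in T- or NK-like cells too (99.5 CPM in Recurrent, 29.7 CPM in Primary; 1.73), where 3.12% of 7636 genes were higher and 2.36% lower.
The comparisons above share libraries: Dormant enters 3 of them, so their values for a gene are not independent.

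Luminal-like and basal-like cells were compared inside 1 library, where mice and handling were shared. In Primary, 3 members were at least 2-fold lower in luminal-like than in basal-like cells and none was higher, where 10.7% of 11102 genes were lower and 10.1% higher. Cdkn1c was at 2.01 CPM in luminal-like and 123 CPM in basal-like cells (log2 ratio -5.91, -6.63 to -5.32), Cdkn2b at -3.43 (-3.98 to -2.93) and Cdkn2a at -2.26 (-2.60 to -1.93). Cdkn1a (-0.97) and Trp53 (-0.83) were also below 0 with intervals that left it out. In Dormant the order was the other way for Cdkn1a (1.42, 1.24 to 1.61), Cdkn2a (1.38, 0.88 to 1.91) and Cdkn2b (1.30, 0.31 to 2.44), which were higher in luminal-like cells, where 12.6% of 8259 genes were higher and 11.9% lower. Cdkn1c kept its side (-3.70, -4.79 to -2.88), and Trp53 was level (-0.11). Whether the change of the luminal to basal ratio between libraries exceeds variation between animals was not tested. In Long-term dormant 4 members were left out for few UMIs, and of the others only Mdm2 was lower in luminal-like cells (-1.18, -2.19 to -0.08), where 13% of 4252 genes were lower and 15% higher.

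Cells were next split within a library by a score of cycling genes, which does not show division itself. A cell thinned to 2000 UMIs was scored as cycling where it held UMIs of at least 2 listed S or G2 and M phase genes, none of them a member. By that score 22.9% of luminal-like cells were cycling in Primary (361 of 1578), 17.6% in Dormant (21 of 119; 11.3 to 25.7), 10.6% in Long-term dormant (11 of 104) and 11.8% in Recurrent (306 of 2584). With 3 genes required the shares were 16.5%, 7.56%, 2.88% and 6.85% in the same order. In Dormant, Cdkn1a was at 787 CPM (690 to 895) in the 21 cycling cells and 605 CPM (557 to 656) in the 98 others (log2 ratio 0.38), so its level was not lower in the cells scored as cycling. In Recurrent it was lower in cycling cells, at 50.4 CPM against 109 CPM in the others (-1.11, -1.30 to -0.93), and in Primary both were near 64 CPM (0.00).

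**Figure D5:**
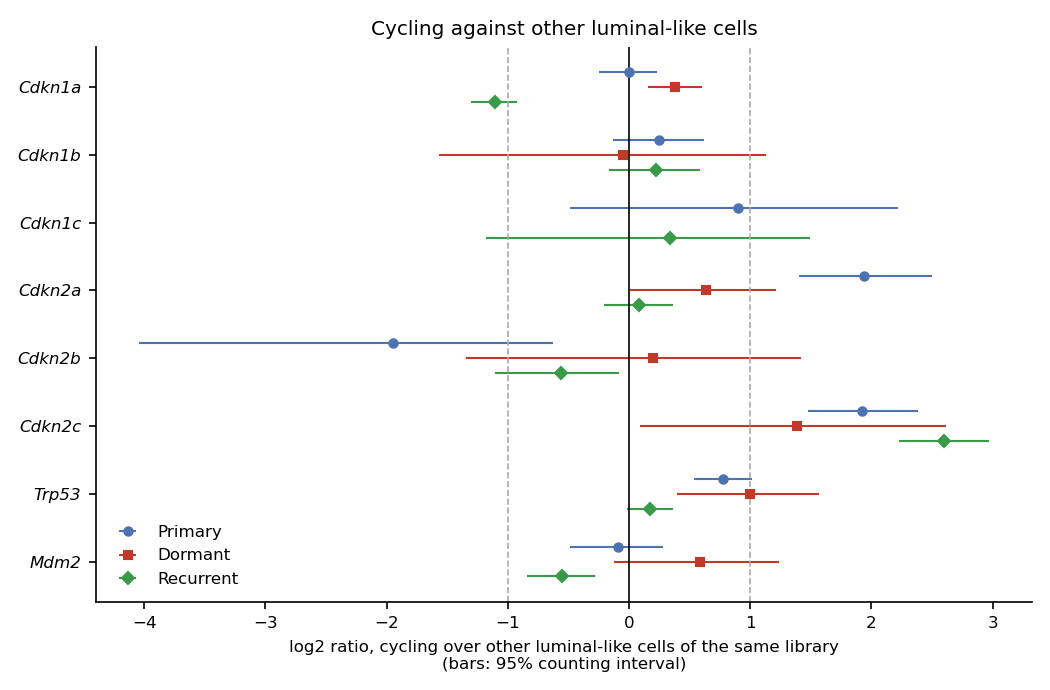
Log2 ratio of cycling over other cells of the same library for each gene, in luminal-like cells of Primary, Dormant and Recurrent, with 95% counting intervals; dashed lines mark 2-fold. Cdkn2c is at least 2-fold higher in cycling cells of each library, from 1.38 in Dormant to 2.60 in Recurrent, and Cdkn1a is lower in cycling cells of Recurrent at -1.11.

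Cdkn2c was at least 2-fold higher in cycling cells in all 4 pools where it was measured. It was higher in cycling cells of Primary (33.5 against 8.83 CPM; 1.92, 1.47 to 2.38), Dormant (37.0 against 14.3 CPM; 1.38, 0.09 to 2.62) and Recurrent (27.7 against 4.58 CPM; 2.60, 2.22 to 2.97) luminal-like cells. In basal-like cells of Primary the ratio was 3.28 (2.08 to 4.81). The background of genes higher in cycling cells was 7.95%, 6.69%, 6.68% and 5.18% in those 4 pools, and of genes lower 4.23%, 8.44%, 3.24% and 2.75%. Cdkn2a was higher in cycling luminal-like cells of Primary (23.7 against 6.15 CPM; 1.94), but not in those of Dormant (0.63) or Recurrent (0.09). Cdkn2b was lower in cycling cells of Primary, both luminal-like (-1.95) and basal-like (-1.02). Over the 8 genes, 3 members were at least 2-fold apart in luminal-like cells of Primary, 1 in Dormant and 2 in Recurrent.

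Each gene was also matched to the genes whose levels ran most like it over the 24 pools, by Pearson correlation of log2(CPM + 1) over 10938 candidates. These are descriptions over pools that share libraries and cell types. Cdkn1a ran most like Nfe2l2, a transcription factor of the oxidative stress response, and Nampt (both r = 0.83), then Plaur (0.80). Cdkn1b ran most like Cdkn2d, the fourth Ink4 inhibitor gene (0.86), and Casp8ap2 (0.85). Cdkn1c ran most like Fst, the activin-binding follistatin gene (0.94), and Cdkn2a like Lrig1, a negative regulator of growth factor receptors (0.86). Cdkn2b ran most like Tbrg1 (0.80), a less close match than for the others. Cdkn2c was closest to Rpia (0.91), Trp53 to Acbd6 (0.96) and Mdm2 to Cdk9 (0.92), the last a kinase of transcription elongation.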

How the data were processed

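Single-cell RNA of 4 stage libraries was measured with 10x Genomics 3' chemistry version 2, per the labels' protocols. The deposited table holds UMI counts per gene and cell that the authors made with Cell Ranger 3.1.0 on build mm10, per the submitters' processing notes; FastQC is named there too. Positions come from GENCODE mm10 and promoters from RefSeq GRCm38.p6.

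A cell entered with 500 or more UMIs, 200 or more genes and a mitochondrial share of 20% or less, and doublets called by Scrublet were left out. Primary lost 53 cells to doublet calls, Dormant 0, Long-term dormant 137 and Recurrent 57. Cells were clustered with scanpy 1.11.5 and leidenalg 0.10.2 (2000 variable genes without the 8 members, 30 principal components, 15 neighbours, resolution 1, seed 0). Clusters were named from 18 marker lists, with at least 3 markers detected in at least 5% of cells; that naming rule was revised once after the clusters had been seen. Primary kept 14 unnamed cells, Dormant 13, Long-term dormant 275 and Recurrent 25.

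Counts were summed per class and library and divided by the class total (CPM). Levels have exact Poisson intervals, and log2 ratios, with 0.5 added to each count, have exact conditional Poisson intervals, both at 95%. The ratio intervals were run on counts simulated from the same Poisson model. That run checks the code only, because it holds no variation between cells or libraries. A gene at 0 UMIs was set to a floor of 3 for a bound, which covers counting error only. With 1 library per group there was no replicate and no test. TMM factors came from edgeR 4.0.16 as an alternative. All members are named; of each other list, at most 3 genes per comparison were named by the largest log2 ratio with an interval that left out 0. The members and lists were chosen with earlier results of these data known. The comparison of cells with and without eGFP needed 30 cells on each side, which no luminal-like or basal-like pool met; other classes were not compared.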

Additional observations from a re-analysis of the deposited data

Results flagged for a closer look

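Each result here is a gene that was at least 2-fold apart in opposite directions in different cell classes under the same pair of libraries. With 1 library per stage, the difference between classes was not tested.

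Cdkn2a, Dormant against Primary, had a log2 ratio of 2.94 in luminal-like cells and of -1.08 in T- or NK-like cells, whose clusters differed between the libraries. In dendritic-like cells its fitted ratio was 3.79, from 21 UMIs in Dormant and 0 in Primary, and the clusters of that class differed too. Recurrent against Dormant, Cdkn2a had -1.89 in luminal-like cells and 1.07 in T- or NK-like cells, whose clusters differed between those libraries as well. Cdkn2b, Dormant against Primary, had 2.52 in luminal-like cells and -2.21 in basal-like cells, whose clusters also differed between the libraries.

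Cdkn2c, Long-term dormant against Dormant, had -1.49 in luminal-like cells, 1.45 in macrophage- or monocyte-like cells and 1.05 in T- or NK-like cells. Recurrent against Dormant, it had -1.19 in luminal-like cells and 1.25 in T- or NK-like cells, whose clusters differed between those libraries.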

How the results depend on the processing

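Of 1291 ratios of single genes recomputed under alternatives with at least 20 UMIs, 1239 lay inside the counting interval of the reported ratio. The sign changed in 62, and 1 of these was of a ratio reported as at least 2-fold: Cdkn2b, at 0.66 in luminal-like cells of Recurrent against Dormant with equal weight per cluster. The cause was not tested. In luminal-like cells of Dormant against Primary, Cdkn1a ranged from 3.103 to 3.41 and Cdkn2a from 2.83 to 3.26 over all alternatives.

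Counts of members at least 2-fold apart moved as follows. A minimum of 100 UMIs, which leaves fewer genes to call, gave 3 in place of 5 in luminal-like cells of Dormant against Primary, 3 in place of 6 in those of Long-term dormant against Dormant, and 0 in place of 1 both in fibroblast-like cells of that comparison and between luminal-like and basal-like cells of Long-term dormant. A minimum of 5 UMIs gave 4 in place of 2 in basal-like cells of Long-term dormant against Dormant and 5 in place of 1 between luminal-like and basal-like cells of Long-term dormant. That last count was 2 with doublets kept and 0 at resolution 2. A threshold of 1.5-fold gave 3 in place of 1 in basal-like cells of Dormant against Primary, 5 in place of 2 in basal-like and 2 in place of 1 in fibroblast-like cells of Long-term dormant against Dormant, 2 in place of 0 in fibroblast-like cells of Recurrent against Dormant and 6 in place of 2 in luminal-like cells of Recurrent against Primary. It also gave 6 in place of 3 between luminal-like and basal-like cells of Primary, 2 in place of 1 between those of Long-term dormant, and, for cycling luminal-like cells, 5 in place of 3 in Primary and 4 in place of 1 in Dormant. TMM factors gave 2 in basal-like cells of Dormant against Primary, where Cdkn1a passed the rule as higher. Equal cluster weight gave 3 in luminal-like cells of Recurrent against Dormant. Without the cell with the most UMIs of the gene, 2 members in place of 0 were apart in fibroblast-like cells of Recurrent against Dormant, and the stricter cell filter gave 1 in luminal-like cells of Recurrent against Primary. Cluster 1 alone, added after seeing the data, gave 2 in fibroblast-like cells of Long-term dormant against Dormant, in place of Cdkn2b lower. Both were called higher (Cdkn1b and Cdkn2a), on 2 and 0 UMIs in Dormant, too few to settle a 2-fold difference.

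No paired analysis was possible because each stage has 1 library. Cells with eGFP gave no value for Long-term dormant, a score of 3 genes none for cycling cells of Dormant, and alternatives for cells with against without eGFP were not run. Mice, age, genotype label and library cannot be told apart from stage. Most Ink4 levels in Long-term dormant epithelium rest on under 10 UMIs, where a difference was often not detectable at this depth.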

Other observations

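Of 8 genes of G1 cyclins and their kinases, 2 were at least 2-fold higher and none lower in Dormant than in Primary luminal-like cells, and none was higher and 2 lower in basal-like cells; over all genes 10.5% were higher and 9.8% lower in luminal-like cells, and 10.9% higher and 15.4% lower in basal-like cells. Ccnd1, the gene of cyclin D1, stood at 461 CPM in Dormant and 167 CPM in Primary luminal-like cells (log2 ratio 1.47, 1.33 to 1.60). Ccnd2, the gene of cyclin D2, stood at 23.4 CPM in Dormant and 2.19 CPM in Primary luminal-like cells (3.41). In basal-like cells Ccnd1 went the other way, with 91.8 CPM in Dormant and 424 CPM in Primary (-2.20), and Cdk4, its kinase partner, had 166 CPM in Dormant and 399 CPM in Primary (-1.26). Recurrent luminal-like cells had Ccnd1 at 50.2 CPM, below both Dormant (-3.20) and Primary (-1.73). Rb1, the retinoblastoma gene, stood at 45.4 CPM in Recurrent and 16.7 CPM in Primary luminal-like cells (1.44).

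Smad7, an inhibitor of TGF-beta signalling that the pathway itself induces, was higher in Dormant in both epithelial classes, with 87.2 CPM in Dormant and 26.7 CPM in Primary luminal-like cells (1.71), and 131 CPM in Dormant and 36.6 CPM in Primary basal-like cells (1.84). Smad3, a signal carrier of that pathway, was lower in both (-1.24 in luminal-like and -1.95 in basal-like cells). Id1, an inhibitor of helix-loop-helix factors, stood at 41.3 CPM in Dormant and 8.84 CPM in Primary luminal-like cells (2.23). Recurrent luminal-like cells had Smad7 at 16.8 CPM, against 87.2 CPM in Dormant (-2.38).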
